A study of Mus musculus with 40 samples.

Results

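The 10 genes described here encode enzymes that cut or crosslink the extracellular matrix and the inhibitors of these enzymes: the matrix metalloproteinases Mmp2, Mmp9, Mmp12, Mmp13 and Mmp14, the tissue inhibitors of metalloproteinases Timp1, Timp2 and Timp3, and the crosslinking enzymes Lox and Loxl2. They were listed by name, with earlier results of these data known, and are 10 of the 55359 genes with counts. All 10 symbols matched 1 Ensembl gene each. Liver RNA came from male C57BL/6 mice that received sesame oil or TCDD, the potent ligand of the aryl hydrocarbon receptor, by gavage at intervals of 4 days over 28 days from day 30 of age, and were killed on day 58. The vehicle group held 5 mice, as did each of the 7 TCDD groups: 4 low doses of 0.03, 0.1, 0.3 and 1 µg/kg, and doses of 3, 10 and 30 µg/kg. The 40 livers gave 1 RNA sequencing library each.

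Metalloproteinases are secreted or membrane-bound enzymes that need zinc and that degrade collagens, gelatin and elastin. Each active enzyme can be blocked by a TIMP, which binds its catalytic site, so net proteolysis depends on both. Lysyl oxidases act in the other direction: they oxidize lysines in collagen and elastin, and the crosslinks that follow make fibers stiffer and harder to degrade. In the liver these genes are used mainly by stellate cells, fibroblasts and macrophages, and they are known from the scarring and the resolution of fibrosis.

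TCDD raised 9 of the 10 genes at 30 µg/kg and 8 at 10 µg/kg, and none passed the threshold at 3 µg/kg or below in edgeR's test. Calls needed a change of 1.5-fold or more and, in the quasi-likelihood test of edgeR against vehicle, an adjusted p below 0.05. Over all 15373 genes tested, 23.2% were called higher at 30 µg/kg and 13.6% at 10 µg/kg. The median log2 fold change of the 10 genes was 2.79 at 30 µg/kg and 1.16 at 10 µg/kg, against 0.03 and 0.01 over all genes tested. No member was called lower at any dose. From 0.03 to 3 µg/kg the share of all genes called in either direction was 0.0195%, 0.0976%, 0.468%, 2.78% and 6.75% in dose order, and 1, 0, 1, 2 and 4 of the 10 genes had an unadjusted p under 0.05. DESeq2 called 1 gene at 3 µg/kg, Mmp13, and none below that dose, and limma on the deposited log2 values called none at these doses. The low-count filter bears on these counts, because Mmp12, Mmp13 and Timp1 passed it through the higher doses: no vehicle library reached its cut of 0.573 CPM, the counts scaled to an equal library size, for them. Of the 5 genes over the cut in every vehicle library (Mmp2, Mmp14, Timp2, Timp3 and Loxl2), 4 were called higher at 30 µg/kg and the same number at 10 µg/kg.

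**Figure D1:**
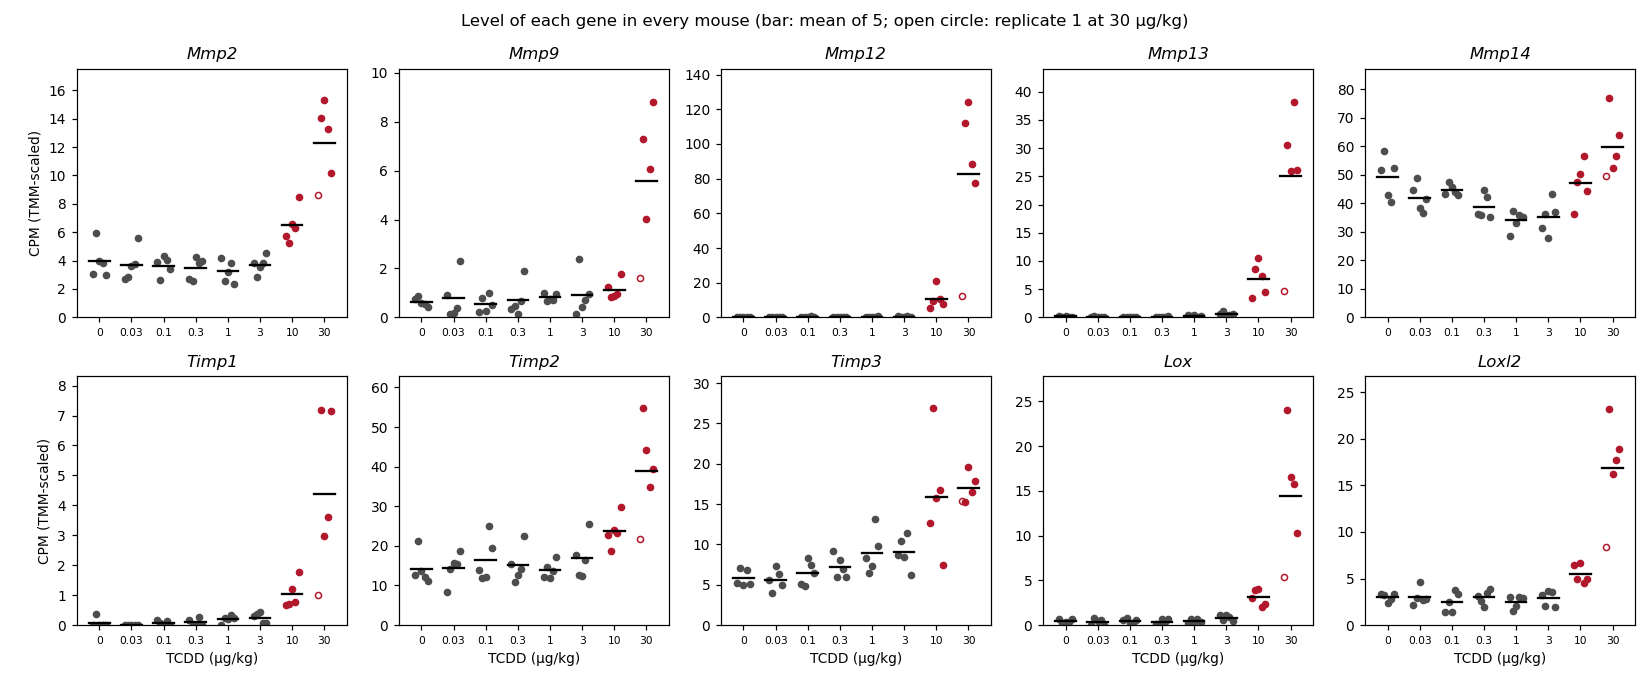
Level of each of the 10 genes in every mouse, in TMM-scaled CPM (y axis, from 0), by TCDD dose in µg/kg (x axis); each point is 1 mouse, the bar is the mean of 5, red marks the 10 and 30 µg/kg groups and the open circle marks replicate 1 at 30 µg/kg. The level rises at the highest doses in 9 panels, and the means of Mmp14 are lowest at 1 and 3 µg/kg.

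Depth and scaling touched all of these values. Counts in genes were 15.5 to 21.0 M per library, and levels are CPM, scaled by trimmed mean of M-values factors (TMM). The TMM factors were 0.845 to 1.04 for vehicle through 3 µg/kg, 0.955 to 1.22 at 10 µg/kg and 1.22 to 1.40 at 30 µg/kg. Under scaling to total counts, the median of all genes at 30 µg/kg moved to 0.52, and 6402 genes were called higher and 1559 lower, against 3567 and 2909 with TMM. The summed CPM of 6 hepatocyte markers, Alb among them, was 100067 to 123828 in vehicle mice and 29468 to 62028 at 30 µg/kg. Replicate 1 at 30 µg/kg stood apart. It was the lowest of its group for 9 of the 10 genes, and for 7 it lay within the range of the 10 µg/kg mice. Tissue RNA cannot separate more cells of a type from more RNA per cell.

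Per length of merged exon, the order of the 10 genes changed with dose. In vehicle livers the level in CPM per kilobase was highest for Mmp14 (8.25 ± 1.23, SD, n = 5), followed by Timp2 (3.63 ± 1.04) and Mmp2 (1.17 ± 0.350), with no overlap between neighbours. Timp3 at 0.714 ± 0.127 and Loxl2 at 0.557 ± 0.0822 overlapped. Mmp9, Lox, Timp1, Mmp13 and Mmp12 lay between 0.180 and 0.0109, and each overlapped its neighbour in that order. At 30 µg/kg Mmp12 had the highest mean level (11.4 ± 6.02), with Mmp14 (10.0 ± 1.84), Timp2 (10.0 ± 3.11) and Mmp13 (9.39 ± 4.65) close by. Timp1, Mmp2, Loxl2, Lox, Timp3 and Mmp9 followed at 4.95, 3.64, 3.13, 3.02, 2.08 and 1.57 CPM per kilobase. At that dose the range over mice of every gene in this order overlapped that of its neighbour.

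Promoter sequence from RefSeq (build GRCm38.p6) was at hand for 6 of the genes. In each window of 250 bases before to 50 bases after the start, GCGTG, the core of the dioxin response element that the activated receptor binds, and TGAGTCA, the binding motif of AP-1 factors, were searched on both strands. GCGTG was in 32.4% of 32851 such windows and in those of 3 of the 6 genes: Timp1, Timp2 and Timp3. TGAGTCA was in 5.2% of windows and in those of 2 genes, Mmp12 and Mmp13, which are neighbours in the metalloproteinase cluster on chromosome 9. The 2 motifs share no bases in these windows, and the window of Mmp14 and that of the other Mmp12 start held neither. The matched stretches of 150 bases are shown 5′ to 3′ on the strand of the gene, with the match in capitals, for the inhibitors, Mmp12 and Mmp13.
Mmp12: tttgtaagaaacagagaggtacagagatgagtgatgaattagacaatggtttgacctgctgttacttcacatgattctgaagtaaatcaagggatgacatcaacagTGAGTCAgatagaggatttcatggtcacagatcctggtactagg
Mmp13: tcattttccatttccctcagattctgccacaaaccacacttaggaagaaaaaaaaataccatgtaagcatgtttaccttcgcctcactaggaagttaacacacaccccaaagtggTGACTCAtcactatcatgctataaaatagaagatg
Timp1: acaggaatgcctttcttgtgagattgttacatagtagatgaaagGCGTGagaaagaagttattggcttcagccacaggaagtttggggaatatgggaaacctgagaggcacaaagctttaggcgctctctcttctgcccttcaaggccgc
Timp2: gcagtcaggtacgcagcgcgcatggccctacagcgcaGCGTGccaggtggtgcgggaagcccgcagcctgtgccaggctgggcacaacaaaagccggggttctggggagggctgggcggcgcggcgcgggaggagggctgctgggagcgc
Timp3: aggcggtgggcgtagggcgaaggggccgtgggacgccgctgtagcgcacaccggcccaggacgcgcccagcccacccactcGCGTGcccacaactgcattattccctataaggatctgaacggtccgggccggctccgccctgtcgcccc
The stretches lie at chr9:7347224-7347373 on the plus strand for Mmp12, chr9:7272364-7272513 on the plus strand for Mmp13, chrX:20869916-20870065 on the plus strand for Timp1, chr11:118355412-118355561 on the minus strand for Timp2 and chr10:86300262-86300411 on the plus strand for Timp3. The match began 44 bases before the start in Mmp12, 35 before it in Mmp13 (where it reads TGACTCA, the motif on the opposite strand), 206 before it in Timp1, 113 in Timp2 and 69 in Timp3. A match describes the letters only, and no link between a match and a change in level was tested.

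Mmp12 (ENSMUSG00000049723), the macrophage elastase, had the largest fold change of the 10 genes. The 5 vehicle libraries held 4, 0, 3, 0 and 0 counts of it. At 3 µg/kg the level was 0.665, 0.418, 0.251, 0.641 and 0.128 CPM, at 10 µg/kg 5.23, 9.23, 20.7, 10.6 and 7.78 CPM, and at 30 µg/kg 12.3, 112, 124, 88.3 and 77.4 CPM. All mice at 10 and 30 µg/kg lay above all vehicle mice and above all mice at 3 µg/kg, and replicate 1 at 30 µg/kg lay among the 10 µg/kg mice. Because the vehicle libraries held 7 counts in all, the size of the change is given as the ratio of summed counts with its 95% counting interval: 121 (58.6 to 302) at 10 µg/kg and 971 (471 to 2416) at 30 µg/kg. The counting intervals cover counting error only. The fitted log2 fold change was 6.83 (SE 0.70, adjusted p = 7.97e-10) at 10 µg/kg and 9.78 (SE 0.68, adjusted p = 6.88e-15) at 30 µg/kg. No vehicle library reached the cut of the low-count filter, which Mmp12 passed through dosed mice. The filter thus fixed the direction of these tests, and their p-values are no evidence for it.

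Mmp13 (ENSMUSG00000050578), the main interstitial collagenase of the mouse, had a similar pattern of levels. Vehicle libraries held 5, 2, 4, 2 and 0 counts. Its level was 0.665, 1.07, 0.377, 0.408 and 0.576 CPM at 3 µg/kg, 3.36, 8.63, 10.6, 7.36 and 4.50 CPM at 10 µg/kg and 4.72, 30.5, 25.9, 38.2 and 26.1 CPM at 30 µg/kg. All 5 mice at 3 µg/kg already lay above all vehicle mice (5.23% of all genes tested did so), but the change missed the threshold, with a log2 fold change of 1.90 (SE 0.65, adjusted p = 0.0566). At 10 and 30 µg/kg the ratio of summed counts to vehicle was 42.3 (24.6 to 79.9) and 158 (92.0 to 296), with adjusted p of 6.02e-10 and 5.37e-14 in edgeR's test. Mmp13 too passed the low-count filter through dosed mice, which fixed the direction, so these p-values are no evidence for it.

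The gelatinases cut denatured collagen and basement membrane collagen, and both were called higher at 30 µg/kg, Mmp2 also at 10 µg/kg. Mmp2 (ENSMUSG00000031740), which stellate cells and fibroblasts make, was 3.03, 5.91, 3.95, 3.85 and 3.01 CPM in vehicle mice, 5.76, 5.26, 6.57, 6.30 and 8.50 CPM at 10 µg/kg and 8.61, 14.1, 15.3, 13.3 and 10.2 CPM at 30 µg/kg. The 30 µg/kg mice lay above all mice of the other 2 groups, whereas 1 vehicle mouse reached into the 10 µg/kg range. Mmp2 was induced 1.64-fold at 10 µg/kg (log2 0.71, SE 0.21, adjusted p = 0.00825) and 3.11-fold at 30 µg/kg (log2 1.64, SE 0.21, adjusted p = 2.14e-08). With limma on the deposited log2 values the change of Mmp2 at 10 µg/kg was 0.55 and was not called. Mmp9 (ENSMUSG00000017737), typical of neutrophils and macrophages, was 0.746, 0.871, 0.583, 0.560 and 0.430 CPM in vehicle mice, 1.25, 0.831, 0.886, 0.942 and 1.78 CPM at 10 µg/kg and 1.62, 7.28, 4.00, 6.07 and 8.81 CPM at 30 µg/kg. At 10 µg/kg its range met that of vehicle and it was not called (log2 0.81, SE 0.61, adjusted p = 0.329). At 30 µg/kg all mice exceeded all vehicle mice, and the induction was 8.57-fold (log2 3.10, SE 0.60, adjusted p = 3.05e-05). Its base was 6 to 15 counts per vehicle library. Single mice at 0.03, 0.3 and 3 µg/kg had 2.29, 1.91 and 2.39 CPM of Mmp9, the highest of their groups and above every vehicle mouse. The mouse at 3 µg/kg also had the highest summed CPM of neutrophil markers in its group, 29.4 against 3.52 to 6.23 in the other 4. Its library had the highest share of unmapped reads of all 40 (11.3%) and the lowest share in genes (71.3%). In the mice at 0.03 and 0.3 µg/kg the neutrophil sum was 2.89 and 3.24, inside the vehicle range of 1.61 to 3.98.

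Mmp14 (ENSMUSG00000000957), a membrane-bound metalloproteinase that activates the Mmp2 proenzyme, was not called at any dose. Its level was 51.8, 58.2, 43.0, 40.3 and 52.5 CPM in vehicle mice, 28.5, 37.3, 33.0, 36.0 and 35.0 CPM at 1 µg/kg, 31.3, 36.2, 27.7, 43.1 and 36.8 CPM at 3 µg/kg and 49.6, 76.8, 52.3, 56.6 and 64.0 CPM at 30 µg/kg. The means were lowest at 1 and 3 µg/kg: all 5 mice at 1 µg/kg lay below all vehicle mice, as 3.13% of genes tested did, and at 30 µg/kg the groups overlapped. The log2 fold change was -0.53 (SE 0.12, adjusted p = 0.00744) at 1 µg/kg, -0.49 (SE 0.12, adjusted p = 0.00690) at 3 µg/kg, -0.07 (SE 0.12, adjusted p = 0.733) at 10 µg/kg and 0.28 (SE 0.12, adjusted p = 0.0473) at 30 µg/kg, all short of a 1.5-fold change. With total-count scaling the value at 30 µg/kg was 0.78 and passed the threshold, and that at 10 µg/kg turned to 0.15.

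All 3 inhibitors were called at both 10 and 30 µg/kg, from very different starting levels. Timp1 (ENSMUSG00000001131), an inducible inhibitor that is a common readout of liver fibrosis, had few reads in control livers: the vehicle libraries held 0, 6, 0, 0 and 0 counts. At 10 µg/kg it was 0.672, 0.692, 1.20, 0.765 and 1.78 CPM, and at 30 µg/kg 1.02, 7.20, 2.97, 3.61 and 7.17 CPM. Both groups lay wholly above vehicle, and replicate 1 at 30 µg/kg lay among the mice at 10 µg/kg. The ratio of summed counts was 13.4 (5.92 to 37.3) at 10 µg/kg and 58.9 (26.9 to 161.1) at 30 µg/kg, and the adjusted p of edgeR's test was 0.00105 and 3.45e-07. Timp1 passed the low-count filter through the 10 and 30 µg/kg mice alone, which fixed the direction, so these p-values are no evidence for it. The vehicle level rests on replicate 2, which held all 6 counts: without that library the fitted log2 fold change at 30 µg/kg was 9.29 in place of 5.74 (SE 0.82).

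Timp2 (ENSMUSG00000017466), which both inhibits metalloproteinases and takes part with Mmp14 in activating Mmp2, was 12.6, 21.3, 13.5, 12.2 and 11.2 CPM in vehicle mice, 22.7, 18.7, 23.9, 23.1 and 29.9 CPM at 10 µg/kg and 21.8, 54.8, 44.1, 35.0 and 39.4 CPM at 30 µg/kg. Vehicle replicate 2 overlapped the 10 µg/kg group, and no vehicle mouse reached the 30 µg/kg group. Timp2 was induced 1.67-fold at 10 µg/kg (log2 0.74, SE 0.24, adjusted p = 0.0144) and 2.75-fold at 30 µg/kg (log2 1.46, SE 0.24, adjusted p = 1.96e-06).

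Timp3 (ENSMUSG00000020044), an inhibitor that binds to the matrix itself, was called at 10 µg/kg at nearly the level it had at 30 µg/kg. It was 5.17, 7.03, 4.92, 6.86 and 5.09 CPM in vehicle mice, 8.65, 10.4, 8.41, 11.4 and 6.15 CPM at 3 µg/kg, 12.7, 26.9, 15.7, 16.7 and 7.50 CPM at 10 µg/kg and 15.4, 15.3, 19.6, 16.6 and 17.9 CPM at 30 µg/kg. The 10 and 30 µg/kg groups lay above vehicle and overlapped each other. Timp3 was induced 2.74-fold at 10 µg/kg (log2 1.45, SE 0.23, adjusted p = 4.99e-06) and 2.92-fold at 30 µg/kg (log2 1.55, SE 0.23, adjusted p = 4.23e-07). The value at 3 µg/kg, a log2 fold change of 0.63 (SE 0.23), had an adjusted p of 0.0757 in edgeR's test. At 1 µg/kg the mean was 9.00 CPM and the log2 fold change was also 0.63 (SE 0.23, adjusted p = 0.135). In the GENCODE M21 annotation 21.3% of the merged exon length of Timp3 is shared with Syn3 on the other strand, and the counts used no strand, so reads there could not be given to either gene.

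Both crosslinkers were called at 10 and 30 µg/kg with no overlap with vehicle. Lox (ENSMUSG00000024529), the founding member of the lysyl oxidases, was 0.647, 0.249, 0.388, 0.350 and 0.716 CPM in vehicle mice, 3.07, 3.88, 4.07, 2.06 and 2.39 CPM at 10 µg/kg and 5.42, 24.1, 16.5, 15.8 and 10.2 CPM at 30 µg/kg. It was induced 6.48-fold (log2 2.70, SE 0.51, adjusted p = 7.13e-05) and 30.1-fold (log2 4.91, SE 0.52, adjusted p = 2.79e-10), from a base of 4 to 13 counts per vehicle library. Loxl2 (ENSMUSG00000034205), a relative that acts on basement membrane and fibrillar collagen, was 3.33, 3.23, 2.33, 2.80 and 3.37 CPM in vehicle mice, 6.43, 4.98, 6.62, 4.47 and 4.95 CPM at 10 µg/kg and 8.42, 23.2, 16.3, 17.7 and 18.9 CPM at 30 µg/kg. The 3 groups did not overlap. The induction was 1.82-fold (log2 0.86, SE 0.26, adjusted p = 0.00955) and 5.60-fold (log2 2.48, SE 0.26, adjusted p = 2.90e-10). In the annotation 5.7% of the exon length of Loxl2 is shared with other genes.

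**Figure D2:**
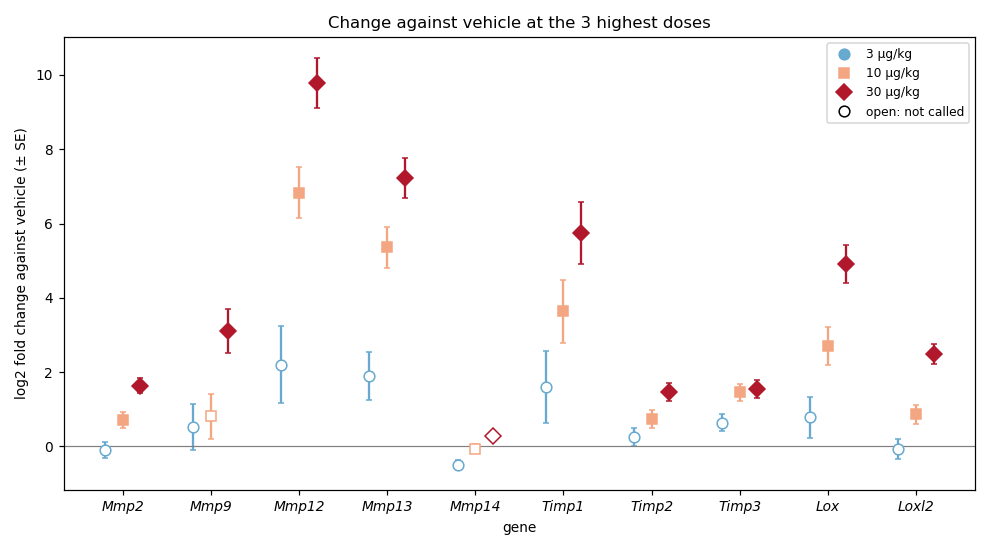
Fitted log2 fold change against vehicle with its standard error (y axis) for each of the 10 genes (x axis) at 3, 10 and 30 µg/kg, with 5 mice per group; filled symbols passed the threshold and open symbols did not. No symbol at 3 µg/kg is filled, and the values at 30 µg/kg run from 0.28 for Mmp14 to 9.78 for Mmp12; those of Mmp12, Mmp13 and Timp1 rest on few vehicle counts.

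Groups of mice separated fully for most of these genes: 9 of the 10 genes had all 30 µg/kg mice above all vehicle mice, and 6 had all 10 µg/kg mice above them, where 19.7% and 12.9% of all genes tested did. Both counts include Mmp12, Mmp13 and Timp1, which passed the low-count filter through dosed mice, so that the filter largely set their separation. Of the 5 genes over its cut in every vehicle library, Timp3 and Loxl2 separated at 10 µg/kg. Mmp2, Timp2, Timp3 and Loxl2 did so at 30 µg/kg. The vehicle, 10 and 30 µg/kg mice came from 2 runs of title numbers, with 3, 2 and 2 mice in the first and 2, 3 and 3 in the second. Within either run 9 of the 10 genes were called at 30 µg/kg, Mmp14 being the exception. At 10 µg/kg 4 were called in the first run (Mmp12, Mmp13, Timp3 and Lox) and 7 in the second (Mmp2, Mmp12, Mmp13, Timp1, Timp2, Timp3 and Lox). Within the first run the log2 fold changes at 10 µg/kg of Mmp2, Timp1, Timp2 and Loxl2 were 0.35, 2.43, 0.38 and 0.92, and within the second 1.05, 7.47, 1.13 and 0.79. The second run holds no vehicle count of Timp1, so its fitted value there is no bound. No share over all genes was computed for the fits within a run, so the counts called there have no background beside them.

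Between neighbouring doses, calls fell only in the steps from 3 to 30 µg/kg. Uncalled steps do not exclude an earlier rise: Timp3 at 1 µg/kg and Mmp13 at 3 µg/kg had higher means than vehicle, short of the threshold of edgeR's test. In the 4 steps from 0.03 to 3 µg/kg none of the 10 genes was called by edgeR or by DESeq2, and in edgeR's test 1, 0, 1 and 0 had an unadjusted p under 0.05. The share of all genes called higher was 0.039% from 0.03 to 0.1, 0.0455% from 0.1 to 0.3, 0.228% from 0.3 to 1 and 0.0585% from 1 to 3 µg/kg. From 3 to 10 µg/kg 6 genes rose, against 4.43% of all genes: Mmp2, Mmp12, Mmp13, Timp3, Lox and Loxl2. The log2 change over this step was 4.63 for Mmp12, 3.46 for Mmp13, 1.92 for Lox, 0.93 for Loxl2, 0.82 for Timp3 and 0.80 for Mmp2. Timp1 also lay wholly higher at 10 than at 3 µg/kg, with a log2 change of 2.03 (SE 0.71), but its adjusted p was 0.0679. Mmp12, Mmp13 and Timp1 passed the low-count filter mainly through the 10 and 30 µg/kg mice. The filter thus largely fixed the direction of the step from 3 to 10 µg/kg for them. From 10 to 30 µg/kg 8 genes rose, against 10.6% of all genes. The log2 change was 2.95 for Mmp12, 2.29 for Mmp9, 2.21 for Lox, 2.10 for Timp1, 1.86 for Mmp13, 1.62 for Loxl2, 0.92 for Mmp2 and 0.72 for Timp2. Timp3 changed by 0.09 (SE 0.22, adjusted p = 0.796) over this last step and Mmp14 by 0.35 (SE 0.12, adjusted p = 0.0261), under the fold threshold. Within single runs, for which no share over all genes was computed, the counts were smaller: 2 genes in each run from 3 to 10 µg/kg, and 1 in the first run from 10 to 30 µg/kg. A slope over the ordered dose steps was positive with an adjusted p under 0.05 for 9 genes, as for 31.5% of all genes tested, and Mmp14 had an adjusted p of 0.317. For Mmp12, Mmp13 and Timp1 among the 9, the low-count filter largely fixed the sign of the slope.

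**Figure D3:**
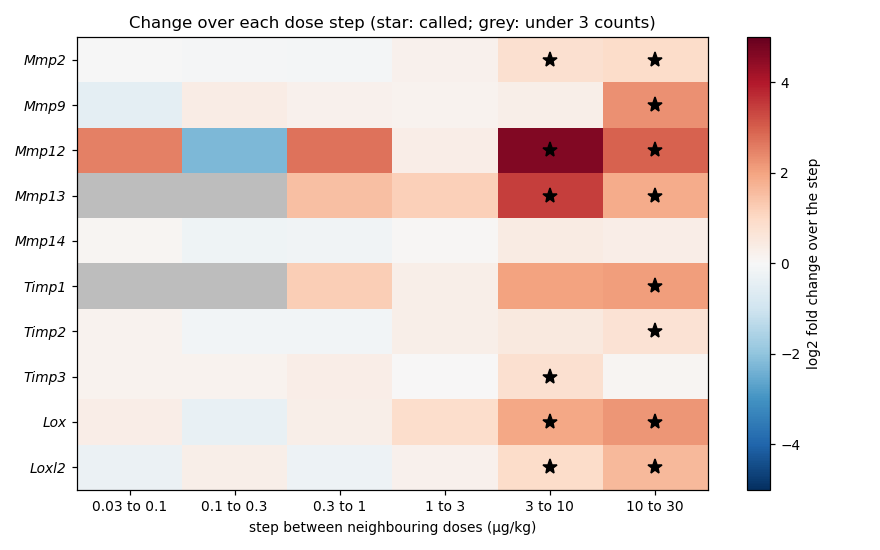
Log2 fold change of each of the 10 genes (rows) over each step between neighbouring TCDD doses in µg/kg (columns), with 5 mice per dose; red is higher at the higher dose, a star marks a call and grey marks steps where both groups averaged under 3 counts. Stars stand in the last 2 columns alone, and the coloured cells of Mmp12 at lower doses rest on few counts. From 3 to 10 µg/kg there are 6 stars, and from 10 to 30 µg/kg 8. The low-count filter largely fixed the direction from 3 to 10 µg/kg for Mmp12, Mmp13 and Timp1.

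Other genes of matrix remodeling were called mainly at the same doses. Of 64 genes in 7 lists, 50 passed the low-count filter. At 30 µg/kg 32 were called higher, 8 lower and 10 were not called, against 23.2% higher and 18.9% lower over all genes tested, and their median log2 fold change was 1.60. These counts and the median include genes near silent in vehicle mice, such as Mmp8, Mmp7, Mmp27 and Mmp3. They passed the filter through dosed mice, which fixed their direction. Among genes with a mean of at least 50 counts, where fewer are tested, 18 were called higher at 30 µg/kg. At 10 µg/kg 23 were called higher and 5 lower, where 8.13% of all genes were lower. At 3 µg/kg 2 were called in each direction.

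Among the other metalloproteinases 5 of 10 tested genes rose and Mmp15 fell (log2 -1.70), and the remaining 4 were not called. Mmp8, the neutrophil collagenase, had no count in any vehicle library and a mean of 22.1 CPM at 30 µg/kg, at least 118-fold above the floor of 3 counts per library. Mmp7 (matrilysin), Mmp27 and Mmp3 (stromelysin 1) were 12.2, 11.9 and 1.63 CPM at 30 µg/kg and 0.112, 0.165 and 0.119 CPM in vehicle mice. On chromosome 9, 10 metalloproteinase genes lie within 427 kilobases. The 6 of them that could be tested (Mmp13, Mmp12, Mmp3, Mmp8, Mmp27 and Mmp7, in that order) held 0 to 9 counts in each vehicle library and passed the low-count filter through dosed mice, so that the filter fixed their direction and their calls say nothing about the cluster. Reck, a membrane-anchored inhibitor and the sole other inhibitor with enough counts, fell (log2 -0.87, SE 0.24, adjusted p = 0.00238), and it was not called with total-count scaling (-0.37).

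The plasminogen system, whose protease plasmin cleaves fibrin and activates metalloproteinases, held calls in both directions. Plat and Plau (tissue-type and urokinase-type activators) and Plaur (the urokinase receptor) rose, with log2 fold changes of 4.51, 3.50 and 4.00. Plg, which encodes plasminogen itself, fell from 2025 to 311 CPM (log2 -2.70, SE 0.18) and Serpinf2, the inhibitor alpha2-antiplasmin, from 906 to 187 CPM (log2 -2.28, SE 0.26). Both are made by hepatocytes. Serpine2, a serpin that inhibits plasminogen activators, was also called lower, with TMM but not with total-count scaling.

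The other lysyl oxidases went in both directions: Loxl3 and Loxl1 rose (log2 2.20 and 1.92) and Loxl4 fell (log2 -2.55, from 13.1 to 2.28 CPM). Of the genes for collagen hydroxylation, folding and other crosslinking, 6 of 10 rose and none was called lower. Fkbp10, Plod2, Serpinh1 (the collagen chaperone HSP47) and Crtap had log2 fold changes of 2.55, 1.98, 1.68 and 1.66. Among the genes for procollagen processing, Adamts14, Adamts2, Pcolce and Pcolce2, which act on or near the amino and carboxyl propeptides, rose by 3.06, 1.42, 1.18 and 0.94, and Bmp1, the main carboxyl propeptidase, fell from 182 to 32.1 CPM (log2 -2.51, SE 0.18).

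Of 14 ADAM and ADAMTS proteases 11 rose at 30 µg/kg. Adam8, a protease of leukocytes, Adamts12, the aggrecanase Adamts4 and Adam12 had log2 fold changes of 5.32, 3.33, 2.92 and 2.89. Adamts7 fell (log2 -2.46).

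**Figure D4:**
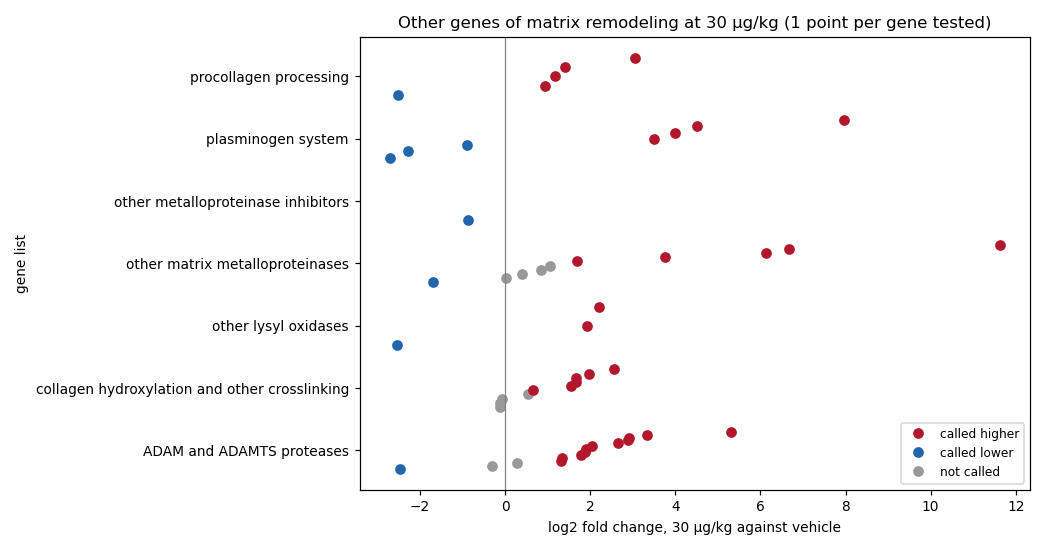
Log2 fold change at 30 µg/kg against vehicle (x axis) of the 50 tested genes of 7 matrix remodeling lists (y axis), 1 point per gene from groups of 5 mice; red was called higher, blue lower and grey not called. The points on the right far outnumber those on the left, and each list except the one inhibitor tested has at least 1 red point. Some points on the right are genes that passed the low-count filter through dosed mice.

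Markers of several cell types also changed with dose, some of them at doses where none of the 10 genes was called. At 1 µg/kg 3 of 11 macrophage markers were called higher and 2 of 6 hepatocyte markers lower. At 3 µg/kg these counts were 5 and 3. Of the others at 3 µg/kg, 3 of 4 tested neutrophil, 2 of 10 stellate cell and 1 of 6 endothelial markers were called higher. Over all genes tested 2.78% at 1 µg/kg and 6.75% at 3 µg/kg were called in either direction. All 11 Kupffer cell and macrophage markers were called higher at 30 µg/kg and 10 at 10 µg/kg, and their summed CPM was 141 to 204 in vehicle mice, 286 to 295 at 1 µg/kg, 350 to 583 at 10 µg/kg and 526 to 1439.6 at 30 µg/kg. Gpnmb, a marker of lipid-laden macrophages, went from 0.270 to 308 CPM, within a mean macrophage sum of 1096 CPM at 30 µg/kg. Its vehicle mean lay under the cut of the low-count filter (0.573 CPM), so the filter largely fixed its direction. This was not checked for the other markers, of which the neutrophil ones were also scarce in vehicle mice. Of 10 stellate cell and fibroblast markers 9 were called higher at 30 µg/kg and 7 at 10 µg/kg, with a summed CPM of 191 to 316 in vehicle mice, 495 to 628 at 10 µg/kg and 662 to 1510.4 at 30 µg/kg. All 4 tested neutrophil markers were higher at 30 µg/kg; their list summed to 1.61 to 3.98 CPM in vehicle mice and 15.5 to 50.2 CPM at 30 µg/kg, and Ly6g and Mpo held no count in vehicle libraries. Of 6 endothelial markers 4 rose at 30 µg/kg, of 5 lymphocyte markers 4 rose, of 4 tested cholangiocyte markers 3 rose and 1 fell, of 3 mesothelial markers 1 rose, and of 6 hepatocyte markers 5 fell. Over all genes tested 23.2% were called higher and 18.9% lower at 30 µg/kg, and 13.6% higher at 10 µg/kg, and the mesothelial count lies near that share. The cholangiocyte sum at 30 µg/kg was 96.1 CPM in replicate 2 and 15.9 to 21.9 CPM in the other mice. Replicate 1 at 30 µg/kg had the lowest macrophage (526), stellate cell (662) and neutrophil (15.5) sums and the highest hepatocyte sum (62028) of its group. The part of these cells in the changes of the 10 genes was not tested.

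**Figure D5:**
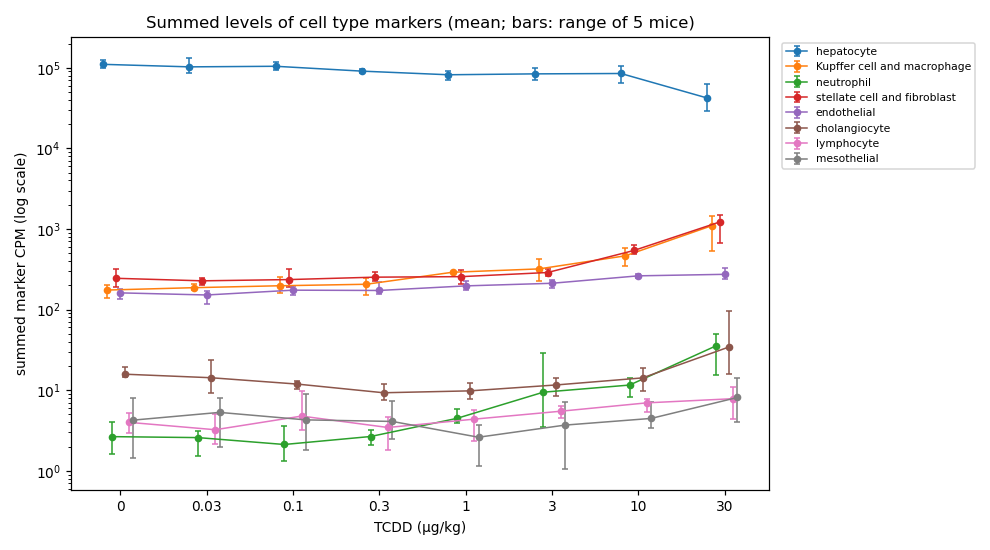
Summed CPM of the markers of 8 cell types (y axis, log scale) by TCDD dose in µg/kg (x axis); points are means of 5 mice and bars run from the lowest to the highest mouse. Macrophage and stellate cell sums are highest at 30 µg/kg, where the hepatocyte sum is lowest.

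Likeness to each gene over the 40 libraries was measured as Pearson's r of log2 CPM. Among 10776 or 10777 other genes with a symbol and a mean of at least 50 counts, Mmp12 and Mmp13 ran most like Lgals3 (Pearson r = 0.96 for each), the galectin-3 of macrophages, and next to it Mmp12 ran most like Mmp13 (0.95) and Mmp13 like Ccdc120 (0.96). Loxl2 ran most like Cd63 and Col3a1 (0.93 and 0.92), Timp2 like Cavin1 and Bgn (0.94 and 0.93), Mmp2 like Ptgfrn and Gdf10 (0.91 and 0.90), and Lox like Mmp12 and Ehd4 (0.91 and 0.91). Timp1 ran most like Sapcd2 and Gpnmb (0.93 and 0.93), Mmp9 like Clic1 and Fcgr3 (0.83 and 0.82), and Timp3 like Lmo7 and Sptbn1 (0.89 and 0.89). These values describe libraries that share the dose series, and carry no test.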

How the data were processed

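Liver RNA of 40 mice (8 groups of 5) was sequenced by the authors as 150 bp paired ends from NEBNext Ultra II libraries. The submitters' processing notes name FastQC 0.11.7, Trimmomatic 0.39 and STAR 2.7.3a, and the builds GRCm39 and mm10 without their roles. The deposited counts are reads per gene as STAR gives them, of which the unstranded column was used; strands split evenly (50.0% to 50.3%). Reads outside genes, multimapping or ambiguous stayed out; genes held 71.3% to 80.8% of reads. The authors also deposited a table of log2 values of 23120 genes, which equals DESeq2's variance-stabilized counts; it served as an alternative.

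Counts were tested here with edgeR 4.0.16 (filterByExpr, TMM, 1 mean per group, quasi-likelihood test, Benjamini-Hochberg over 15373 genes) in R 4.3.3. The study's posterior probability was not at hand. DESeq2 1.42.0 and limma 3.58.1 were alternatives. CPM values show mean ± SD; log2 fold changes show standard errors. The script was tested on simulated data. Replicate pairs (80) were compared by chi-square over genes; the smallest value per degree of freedom was 10.2, and all libraries were kept as separate samples. Labels name no pairing or cage, and p-values measure the spread between mice. Gene identifiers were named with the GENCODE M21 table (52083 of 55359). The 10 genes, the 7 pathway lists and the 8 marker lists were chosen with earlier results of these data known. Named from each pathway list were up to 4 of the largest rises and 2 of the largest falls at 30 µg/kg among called genes with a mean of at least 20 counts in the higher group. A gene that the rule names is not reported here. Likeness was by Pearson r over genes with a mean of at least 50 counts. Alternatives were other tests, scalings and filters, no fold threshold, fits within or adjusted for run (title numbers up to 27, 19 libraries, and from 28, 21 libraries), each dose with vehicle alone, and leaving out each library.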

Additional observations from a re-analysis of the deposited data

Results flagged for a closer look

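Within single groups of 5 mice, 4 of 79 gene and group combinations held a mouse far from the rest (Dixon's ratio of gap to range above 0.71); chance flags about 1 in 20 groups. Mmp9 in replicate 5 at 0.3 µg/kg was 1.91 CPM, and the next mouse of that group was 0.663 CPM. Timp1 in vehicle replicate 2 was 0.373 CPM, and the other vehicle mice held no count. Timp2 in the same vehicle mouse was 21.3 CPM, and the next was 13.5 CPM. Loxl2 in replicate 3 at 0.03 µg/kg was 4.61 CPM, and the next was 2.85 CPM.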

How the results depend on the processing

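The 12 other settings kept all groups' libraries, a single run, or each dose with vehicle alone. Of 542 values recomputed under them, 500 stayed on the same side of the threshold in the same direction or within 1.5 times of a count. The calls of the 10 genes at 30 µg/kg (9 in each fit without 1 library) and at 10 µg/kg (8 to 8) did not depend on 1 library, and 9 to 9 genes had a dose trend. At 10 µg/kg the first run alone called 4 genes, with no share over all genes computed within a run. At 1 µg/kg 1 gene (Mmp14) was called with no fold threshold, and 0 to 1 without 1 library: Mmp14 at -0.60 without vehicle replicate 4. At 3 µg/kg 1 gene was called by DESeq2 and with total counts (Mmp13), in the first run and with no fold threshold (Mmp14), and with vehicle and the dose alone (Timp3), and 0 to 1 without 1 library, as for Timp3 (0.74) without replicate 5 at 3 µg/kg, and for Timp1 without vehicle replicate 2, the sole vehicle library with a count of it, so that its fitted value is no bound. From 3 to 10 µg/kg 2 genes were called in each run alone and 4 to 6 without 1 library. From 10 to 30 µg/kg 1 was called in the first run and 7 to 8 without 1 library; Timp2 fell short (0.55) without replicate 2 at 30 µg/kg. Mmp14 at 10 µg/kg turned positive with total counts (0.15), in the second run (0.11), without vehicle replicate 2 (0.00075) and without replicate 1 at 10 µg/kg (0.013), in a range of -0.14 to 0.01 without 1 library. Timp3 from 10 to 30 µg/kg turned negative in the first run (-0.36) and without replicate 5 at 10 µg/kg, in a range of -0.088 to 0.37 without 1 library. The cause of these changes was not tested, beyond the fewer mice in a single run.

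The matrix remodeling lists held 3 called genes at 1 µg/kg, 1 in the first run, 0 in the second and 1 to 2 without 1 library; 4 to 4 at 3 µg/kg; 14 higher at 10 µg/kg among genes with a mean of at least 50 counts, 11 in the first run and 23 to 29 without 1 library; 3 lower in the second run and 4 to 5 without 1 library; and at 30 µg/kg 18 higher with a mean of at least 50 counts, where fewer genes are tested, and 32 to 37 higher and 7 to 8 lower without 1 library. With total counts the mean summed CPM at 30 µg/kg was 356 for endothelial and 1616 for stellate cell markers. No paired analysis was possible because the replicate numbers follow accession order and pair no mice. Depth limits Mmp12, Mmp13 and Timp1 in vehicle mice, where 0 to 6 counts per library set the base of the fold change. Lox and Mmp9 also had few vehicle counts, 4 to 13 and 6 to 15 per library. Over the other settings their log2 fold change at 30 µg/kg ran from 3.04 to 5.43 and from 1.72 to 3.62.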
